A study of Mus musculus with 6 samples.

Results

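Interferon-induced genes and genes of the major histocompatibility complex (MHC) class I pathway were examined in the brain of male mice at postnatal day 6. Of 9 genes set by name (Ifit1, Ifit3, Isg15, Irf7, Usp18, B2m, H2-D1, H2-K1 and Tap1), 7 were found by symbol in the deposited table, where they had 11 probes among 25697 probes of 18138 symbols. Isg15 and H2-D1 were not analysed here.

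The whole brain of 3 hSRY-OFF and 3 hSRY-ON mice was profiled on Illumina MouseRef-8 v2.0 arrays, on which beads carry a short probe and their brightness reads the amount of a transcript. All mice were male, of strain FVB and aged 6 days. Both groups carried the Signalox-hSRY transgene, a single copy at the H11 locus of chromosome 11. In hSRY-OFF mice the transgene was not recombined, so that the CAG promoter, which is active in nearly all tissues, drove the red fluorescent protein DsRed2 and human SRY was silent. In hSRY-ON mice Cre recombinase carried over from the oocyte of a Ddx4-Cre mother had removed DsRed2 in the early embryo, and the same promoter drove FLAG-tagged human SRY and EGFP. The hSRY-ON mice chosen for the arrays did not carry the Ddx4-Cre transgene themselves. The groups thus differed in the fluorescent protein as well as in SRY, and these cannot be told apart. The mothers of the hSRY-OFF mice are not described in the sources used here. The authors report highly efficient recombination in pups of Ddx4-Cre mothers, so mother and litter likely differed between the groups too. They also report little suckling and slow growth of hSRY-ON pups. None of these can be told apart from SRY. Nothing in the labels says whether the replicates came from separate litters, so p-values measure the spread between these samples.

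Cells make type I interferon when they sense foreign nucleic acid, and interferon acts through its receptor, the JAK kinases and a complex that holds the STAT2 and IRF9 proteins to switch on a large set of antiviral genes. MHC class I molecules, which are among the products raised by interferon, present peptides at the cell surface as a heavy chain paired with beta 2-microglobulin. In the brain they are found on endothelium and microglia and also on neurons, where they are known for a part in the shaping of synapses during development.

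The promoters of these genes are shown first, because a short interferon-stimulated response element is what many of them share. Promoters of 8 of the 9 genes were in the RefSeq table used (build GRCm38.p6); Usp18 was the other gene. The 250 bases before the start site were searched on both strands for the core of the response element, which is GAAA followed by any 2 bases and again GAAA, for AANNGAAA, the looser core bound by interferon regulatory factors, which every response element core also contains, and for TTCNNNGAA, the element of the interferon gamma response. The response element core occurred in 4 of the 8 genes (Ifit1, Ifit3, Isg15 and B2m), and in 2.98% of all 32851 promoters. AANNGAAA occurred in 6 of the 8, the same 4 with H2-D1 and H2-K1, and in 21.3% of all promoters. TTCNNNGAA occurred in none of the 8, and in 7.02% of all promoters. A match describes the letters in this window and is not a measured binding site. A stretch of each promoter is given 5′ to 3′ on the strand of the gene, with 1 match of each in capitals. In Isg15 3 cores overlap one another within the stretch, and only the middle one is in capitals. Ifit1 is shown as a gene below detection, Isg15 as a gene whose RNA was not analysed here, B2m as the bright member, H2-D1 for the class I heavy chains, and Gbp2 as an interferon-induced gene described below. The stretches are chr19:34640770-34640809 (plus strand) for Ifit1, chr4:156200866-156200905 (minus strand) for Isg15, chr2:122147533-122147572 (plus strand) for B2m, chr17:35262929-35262966 (plus strand) for H2-D1 and chr3:142620589-142620628 (plus strand) for Gbp2. The capitals mark the response element core or its reverse complement, and in H2-D1 the reverse complement of AANNGAAA.
Ifit1: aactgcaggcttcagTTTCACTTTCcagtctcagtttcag
Isg15: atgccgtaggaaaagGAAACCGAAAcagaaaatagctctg
B2m: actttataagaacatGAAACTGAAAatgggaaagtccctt
H2-D1: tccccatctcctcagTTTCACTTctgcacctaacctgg
Gbp2: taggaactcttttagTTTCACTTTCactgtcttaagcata

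Detection was compared first, to ask which of these transcripts could be measured at all in this tissue. A probe counted as detected on an array when its detection p-value, the fraction of negative controls on that array that reached its brightness, was under 0.05. The dimmest intensity that was detected lay between 184 and 203 on the 6 arrays. Of the 11 probes, 3 were detected on all 6 arrays, 4 on some arrays and 4 on none, and the same 3 were detected on all arrays at a stricter detection p-value of 0.01. The number of these probes detected per array ranged from 4 to 7 in hSRY-OFF and from 4 to 5 in hSRY-ON, so the groups overlapped. Of the genes with a probe, B2m alone was bright. Ifit3 lay a little above the limit of detection on all 6 arrays at 1 of its 2 probes, and the other interferon-induced genes were at or below the limit in both genotypes.

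**Figure D1:**
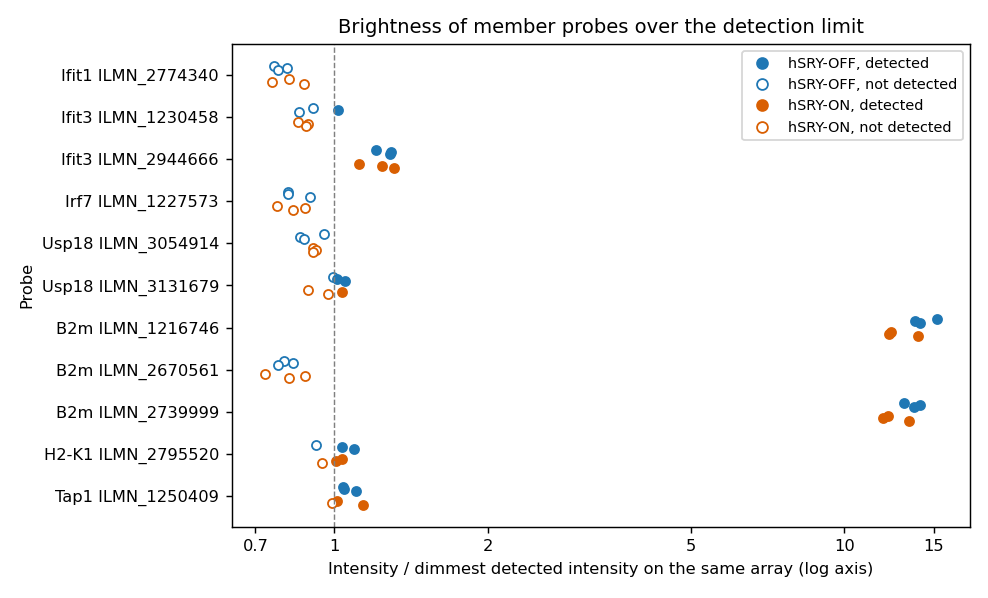
Intensity of each of the 11 probes divided by the dimmest detected intensity on the same array (log axis), with 3 hSRY-OFF arrays in blue and 3 hSRY-ON arrays in orange; filled points were detected and open points were not. Both bright B2m probes lie far to the right of the dashed line at 1, Ifit3 ILMN_2944666 lies just to the right on all 6 arrays, and the other 8 probes lie on or left of the line on some or all arrays.

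Among the interferon-induced genes, Ifit1, whose product binds viral RNA, had 1 probe (ILMN_2774340). It read 154, 154 and 149 in hSRY-OFF and 160, 139 and 167 in hSRY-ON (intensity, arrays 1 to 3 of each group in order, as in all values below), with detection p-values from 0.377 to 0.987. Irf7, the transcription factor that amplifies interferon production, had 1 probe (ILMN_1227573) with intensities of 164, 155 and 173 in hSRY-OFF and 152, 161 and 159 in hSRY-ON and detection p-values from 0.216 to 0.931. Both genes were below detection on every array, and no fold change is given for them.

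Ifit3, a partner of Ifit1, had a probe that was detected on all arrays (ILMN_2944666), with normalized log2 signals of 6.29, 6.62 and 6.68 in hSRY-OFF and 6.07, 6.42 and 6.72 in hSRY-ON. The groups overlapped, with the highest and the lowest value both in hSRY-ON. The log2 fold change, hSRY-ON minus hSRY-OFF here and below, was -0.13 (SE 0.18, limma adjusted p 0.734). The second Ifit3 probe (ILMN_1230458) was detected on hSRY-OFF array 2 only and was not tested.

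Usp18, the protease that takes ISG15 off its targets and restrains the interferon receptor, had 2 probes. ILMN_3131679 gave normalized log2 signals of 5.38, 5.48 and 5.79 in hSRY-OFF and 4.88, 5.57 and 5.30 in hSRY-ON. It was detected on 2 hSRY-OFF arrays and 1 hSRY-ON array, so the signal was at the limit of detection in both groups, and the values overlapped. Its log2 fold change was -0.30 (SE 0.19, limma adjusted p 0.412), and -0.12 without hSRY-ON array 1. ILMN_3054914 was detected on no array.

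Of the class I pathway, B2m, which encodes beta 2-microglobulin, the light chain that all class I heavy chains need, had 3 probes. ILMN_1216746 gave intensities of 3077, 2628 and 2719 in hSRY-OFF and 2438, 2254 and 2671 in hSRY-ON. After normalization these were log2 signals of 11.34, 11.30 and 11.38 in hSRY-OFF and 11.14, 11.12 and 11.34 in hSRY-ON. Arrays 1 and 2 of hSRY-ON lay below all hSRY-OFF arrays, and array 3 lay within their range. This gave a log2 fold change of -0.14 (SE 0.090, limma adjusted p 0.418), which is 0.908-fold with a 95% interval of 0.784 to 1.05.

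The second bright B2m probe, ILMN_2739999, gave normalized log2 signals of 11.11, 11.34 and 11.35 in hSRY-OFF and 11.11, 11.07 and 11.29 in hSRY-ON. On this probe the groups overlapped, because hSRY-OFF array 1 was as low as hSRY-ON array 1. Its log2 fold change was -0.11 (SE 0.10, limma adjusted p 0.598), or 0.928-fold with a 95% interval of 0.783 to 1.10. With 1 array left out, the log2 fold change ran from -0.19 (without hSRY-OFF array 1) to -0.066 (without hSRY-OFF array 3). In whole tissue, fewer cells of a type and less RNA per cell cannot be told apart. ILMN_2670561, the third B2m probe, was below detection on all 6 arrays, with intensities from 144 to 161, although the gene was bright at the other 2 probes. A silent probe therefore does not show that a transcript was absent, and this applies to Ifit1 and Irf7 as well, which had 1 probe each.

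H2-K1 encodes a class I heavy chain, the chain that holds the peptide. Its only probe, ILMN_2795520, gave normalized log2 signals of 5.02, 5.62 and 6.01 in hSRY-OFF and 5.66, 5.42 and 5.13 in hSRY-ON, and was detected on 2 arrays of each group. The hSRY-OFF arrays spread over the whole range of the hSRY-ON arrays. The difference on the log2 scale was -0.14 (SE 0.26, limma adjusted p 0.798), or 0.906-fold with a 95% interval of 0.597 to 1.38. Class I genes are polymorphic between strains and nearly identical to each other, and probe sequences were not used here, so which class I genes and alleles of FVB this probe reads was not tested.

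Tap1 encodes one subunit of the transporter that brings peptides into the endoplasmic reticulum for loading. Its probe, ILMN_1250409, gave normalized log2 signals of 5.61, 5.66 and 6.05 in hSRY-OFF and 5.55, 5.31 and 6.15 in hSRY-ON, where array 2 was not detected. Array 3 was the highest in both groups and the groups overlapped. The log2 fold change was -0.10 (SE 0.23, limma adjusted p 0.836), or 0.931-fold with a 95% interval of 0.644 to 1.35.

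**Figure D2:**
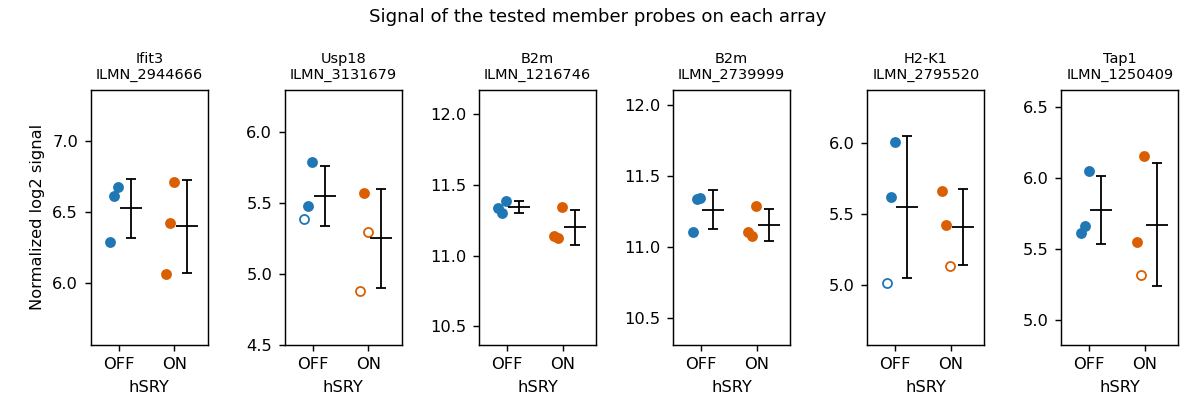
Normalized log2 signal of the 6 tested probes on each array, hSRY-OFF in blue and hSRY-ON in orange, with the group mean and SD (n = 3) as black bars; open points were not detected and every panel spans the same height. The groups overlap at all 6 probes, and both B2m probes vary less between arrays than the H2-K1 probe.

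Over all probes tested, 311 of 14215 (2.19%) were called in limma at an adjusted p under 0.05, with 123 (0.865%) above and 188 (1.32%) below their level in hSRY-OFF. Of the interferon-induced and class I probes, 6 of 11 were bright enough to be tested, for 5 genes, and 0 were called in limma (0 at an unadjusted p under 0.05, against 20.9% of all tested probes). The groups overlapped at all 6, while they did not overlap at 27.7% of all tested probes. The log2 fold change was below 0 at all 6 probes, as at 49.0% of all tested probes, and had a median of -0.13 against 0.0048 over all probes. None of the 6 differences passed the limma test, although that of B2m ILMN_1216746 was larger than the SD of either group (0.04 in hSRY-OFF and 0.12 in hSRY-ON), and for Ifit3, H2-K1 and Tap1 the sign turned when 1 array was left out. It turned for Ifit3 without hSRY-ON array 1 (0.041), for H2-K1 without hSRY-OFF array 3 (0.090) and for Tap1 without hSRY-OFF array 3 (0.04) or hSRY-ON array 2 (0.076). The 95% intervals of the fold, hSRY-ON over hSRY-OFF, ended at 1.23 for Ifit3, 1.11 for Usp18, 1.05 and 1.10 for B2m, 1.38 for H2-K1 and 1.35 for Tap1.

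**Figure D3:**
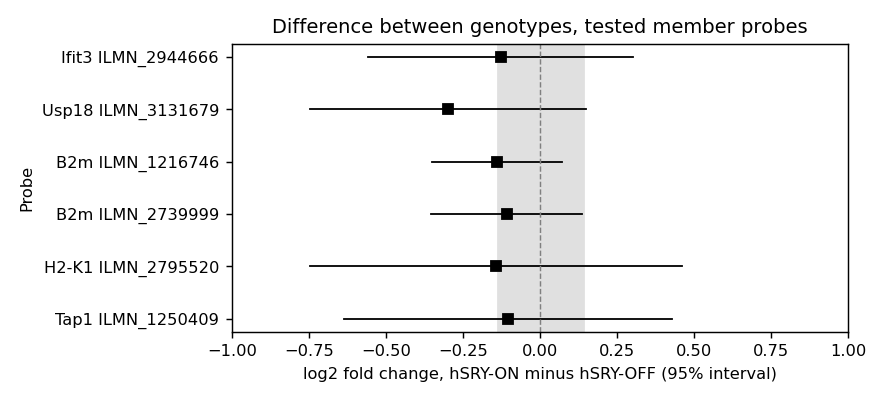
Log2 fold change (square) and its 95% interval (line) for each tested probe, from the limma fit over all 14215 probes; the grey band spans the quartiles of all tested probes, -0.14 to 0.14. All 6 intervals include 0, and those of the B2m probes are the narrowest.

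Further genes of the same pathways were then read from 5 lists set by role, to ask whether other genes of these pathways differed between the genotypes. The lists held 116 genes, of which 105 were matched to a probe, 35 were detected on no array at any probe and 59 had a probe that was tested. With the brightest probe counted for each gene, 0 of 59 were called in limma, and 11 (18.6%) had an unadjusted p under 0.05, against 20.9% of all tested probes. The groups did not overlap for 13 of the 59 genes, with 7 lower and 6 higher in hSRY-ON, against 14.2% of all tested probes lower and 13.5% higher. The median log2 fold change of the 59 genes was -0.03.

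Of 50 other interferon-induced genes, 46 had a probe and 21 of these were detected on no array, including Cxcl10, Oas2, Oas3, Ifi44, Ifih1 and Ddx58. Of the 22 tested, 13 lay below 0 and 9 above, with a median log2 fold change of -0.09, and 0 were called in limma (7 of 22 at an unadjusted p under 0.05, against 20.9% of all tested probes). Those with the largest differences among genes whose groups did not overlap were the guanylate-binding proteins Gbp3 and Gbp2, GTPases known from the response to interferon gamma, and the antiviral factor Samd9l.

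Gbp2 (ILMN_3122961) gave normalized log2 signals of 7.39, 7.09 and 7.59 in hSRY-OFF and 6.46, 6.34 and 7.03 in hSRY-ON, a log2 fold change of -0.75 (SE 0.21, limma adjusted p 0.107). Gbp3 (ILMN_1244513) gave 7.26, 7.08 and 7.29 in hSRY-OFF and 5.86, 6.79 and 6.63 in hSRY-ON, a log2 fold change of -0.78 (SE 0.23, limma adjusted p 0.124), and -0.50 without hSRY-ON array 1. Its second probe, ILMN_2918002, overlapped between the groups on hSRY-ON array 3 (log2 fold change -0.43, limma adjusted p 0.241). These genes did not pass the threshold. Gbp2 passed it without background correction (log2 fold change -0.34, limma adjusted p 0.0237), with normexp on the signals (-0.50, 0.0446), with a trend and a robust prior (-0.75, 0.0115) and without hSRY-ON array 3 (-0.96, 0.0408), and Gbp3 under the first 3 of these settings (log2 fold changes -0.32, -0.50 and -0.78, limma adjusted p 0.0231, 0.0440 and 0.0147; range over all alternatives 0.0115 to 0.255 for Gbp2 and 0.0147 to 0.253 for Gbp3).

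Samd9l (ILMN_1224855) gave 8.14, 7.99 and 8.08 in hSRY-OFF and 7.35, 7.79 and 7.80 in hSRY-ON, a log2 fold change of -0.42 (SE 0.14, limma adjusted p 0.144), and -0.27 without hSRY-ON array 1. The groups of this list did not overlap for 4 lower genes, which were Gbp2, Gbp3, Samd9l and the GTPase Igtp (-0.39, limma adjusted p 0.0884, the lowest of the list), and for 3 higher genes, Bst2, which tethers virus particles to the cell (0.36, limma adjusted p 0.202), Ifitm2 (0.29, limma adjusted p 0.108) and Lgals3bp (0.26, limma adjusted p 0.150), that is for 4 and 3 of 22 genes, against 14.2% of all tested probes lower and 13.5% higher. Igtp, Bst2, Ifitm2 and Lgals3bp are named after their values were seen. Igtp lay near the limit of detection, at normalized log2 signals of 5.38 to 6.01. It was detected on 3 hSRY-OFF and 2 hSRY-ON arrays.

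**Figure D4:**
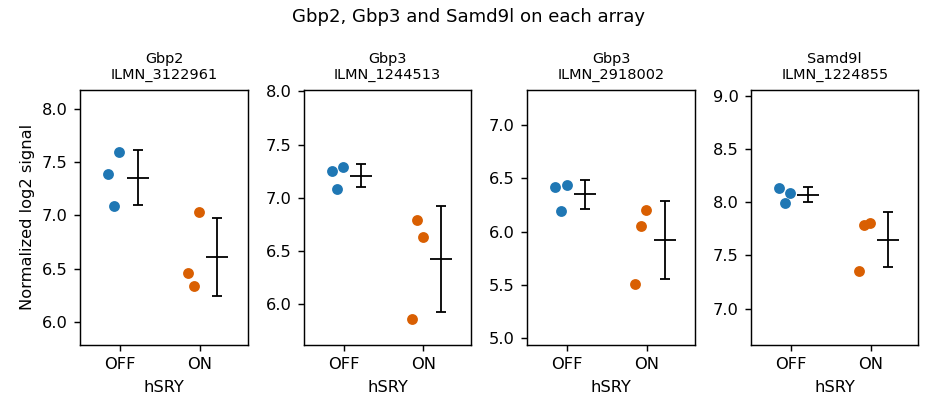
Normalized log2 signal of Gbp2, both Gbp3 probes and Samd9l on each array, hSRY-OFF in blue and hSRY-ON in orange, with the group mean and SD (n = 3) as black bars and panels of equal height. The hSRY-ON points lie below the hSRY-OFF points in every panel but that of Gbp3 ILMN_2918002, and the spread between hSRY-ON arrays is wide for Gbp2 and Gbp3.

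Interferon receptors and their signalling proteins made up 17 genes, of which 12 were tested, 7 below 0 and 5 above with a median log2 fold change of -0.03. In limma 0 of the 12 were called and 2 had an unadjusted p under 0.05, against 2.19% and 20.9% of all tested probes. The groups did not overlap for 3 of the 12, against 27.7% of all tested probes. Ifnar1, one chain of the type I interferon receptor, was detected on no array, as were Il10rb, Jak1 and Irf8. The 3 genes whose groups did not overlap were the kinase Jak2 (ILMN_1245579), which gave normalized log2 signals of 9.90, 9.90 and 9.86 in hSRY-OFF and 10.19, 10.25 and 10.01 in hSRY-ON, the receptor inhibitor Socs3 (ILMN_2618176) and Ifngr1 (ILMN_2651575), a chain of the interferon gamma receptor. Their log2 fold changes were 0.26 for Jak2 (limma adjusted p 0.161), -0.27 for Socs3 (limma adjusted p 0.177) and 0.14 for Ifngr1 (limma adjusted p 0.317). At the second Jak2 probe (ILMN_3115162) the groups overlapped, with a log2 fold change of 0.16 (limma adjusted p 0.396). Stat2 and Irf9, which act together in the type I response, lay at -0.24 (limma adjusted p 0.493) and 0.13 (limma adjusted p 0.608).

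Of 11 nucleic acid sensors and their adaptors, 6 were tested, with a median log2 fold change of -0.04. In limma 0 were called and 0 had an unadjusted p under 0.05, against 2.19% and 20.9% of all tested probes. The widest was Tlr7, a receptor for RNA, at 0.45 (limma adjusted p 0.401), where hSRY-ON array 1 at 7.72 lay above the other 5 arrays at 6.49 to 6.76. Interferon genes themselves were mostly dark. Of 16 with a probe, 11 were detected on no array, Ifnb1 among them, and 3 were tested (Ifna1, Ifna6 and the gene listed as Ifne1), with limma adjusted p values of 0.798 or more. Ifna6 alone was detected on all arrays, at normalized log2 signals of 6.96 to 7.53. The Ifna genes are near-identical copies, so their signals are uncertain as to gene.

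Antigen processing and loading made up 16 genes, of which 11 were tested, 5 below 0 and 6 above with a median log2 fold change of 0.08. In limma 0 of the 11 were called and 2 had an unadjusted p under 0.05, against 2.19% and 20.9% of all tested probes. The groups overlapped for 8 of the 11, while they did not overlap at 27.7% of all tested probes. Psmb9, a subunit of the immunoproteasome, lay at -0.25 (limma adjusted p 0.599), Psmb10 at 0.08 (limma adjusted p 0.723; -0.02 at its other probe), and Tap2, the partner of Tap1, at 0.26 (limma adjusted p 0.501). The proteasome activators Psme1 and Psme2 lay at -0.01 (limma adjusted p 0.939) and -0.12 (limma adjusted p 0.551) and Tapbp, tapasin, at 0.098 (limma adjusted p 0.683). Psmb8 was detected on 1 array only.

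The genes of this list with the largest differences and no overlap between groups were Calr, Tapbpl and Pdia3. Calr encodes calreticulin, a chaperone of glycoproteins in general as well as of class I chains. Its signals were 11.31, 11.46 and 11.60 in hSRY-OFF and 10.78, 11.21 and 10.50 in hSRY-ON, a log2 fold change of -0.63 (SE 0.18, limma adjusted p 0.116). It passed the threshold without background correction (0.00777) and with normexp on the signals (0.0384; range over all alternatives 0.00777 to 0.255). The disulfide isomerase Pdia3 lay at -0.21 (limma adjusted p 0.237, and 0.0352 with a trend and a robust prior). The peptide editor Tapbpl lay at 0.32 (limma adjusted p 0.253), and at 0.17 without hSRY-ON array 2.

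Other class I heavy chains and related molecules made up 22 genes, of which 17 had a probe and 8 were tested. In limma 0 were called and 0 had an unadjusted p under 0.05, against 2.19% and 20.9% of all tested probes. Their log2 fold changes ran from -0.20 for H2-Q2 to 0.31 for Hfe, with a median of -0.05. The groups overlapped for all 8, while they did not overlap at 27.7% of all tested probes. H2-T10 (-0.03), H2-M3 (-0.08) and H2-Q8 (-0.00048), non-classical class I genes, were detected on all arrays. As with H2-K1, signals of the H2-Q and H2-T genes, which are near-identical to others of their family, are uncertain as to gene.

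**Figure D5:**
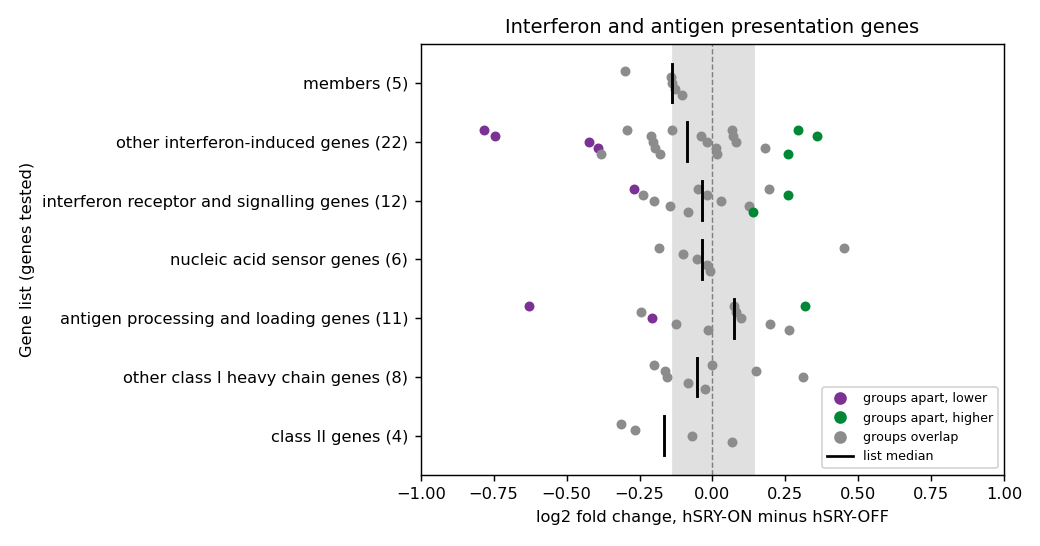
Log2 fold change of each tested gene by list, 1 probe per gene, with the list median as a black line; purple and green points are genes whose groups did not overlap, lower and higher in hSRY-ON, and the grey band spans the quartiles of all tested probes, -0.14 to 0.14. The list medians lie between -0.17 and 0.08, and the widest points are Gbp3, Gbp2 and Calr on the lower side.

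Markers of cells that carry much class I protein or interferon-induced RNA were read on the same arrays. All signals here are sums of normalized linear signal over the tested markers of a list. Microglia markers (10 of 11 tested, Itgam detected on no array) summed to 3703 to 4028 in hSRY-OFF and 4403 to 4686 in hSRY-ON. Most of this difference lay in the complement genes C1qa, C1qb and C1qc (log2 fold changes 0.38, 0.38 and 0.45, of which C1qb and C1qc did not overlap between groups), without which the other 7 markers summed to 1879 to 1974 and 1893 to 2037. Of the 10, 4 lay below 0, with Cd68 the lowest at -0.43 and no overlap between groups. The groups did not overlap for 1 lower and 2 higher genes of the 10, against 14.2% and 13.5% of all tested probes. Endothelium markers (9 of 11 tested, Kdr and Abcb1a detected on no array) summed to 9109 to 9614 and 9299 to 10146, and among them Vwf, von Willebrand factor, was called (log2 fold change 1.75, limma adjusted p 0.0241). The list did not move one way: its median log2 fold change was -0.12, and Tie1 (-0.63), Tek (-0.53), Cldn5 (-0.42) and Cdh5 (-0.35) were lower and Slc2a1 (0.60) and Flt1 (0.49) higher with no overlap between groups and without passing the threshold. With Vwf, 4 of the 9 were lower and 3 higher without overlap, against 14.2% and 13.5% of all tested probes. Granulocyte and monocyte markers (4 of 8 with a probe tested, Ccr2 detected on no array) summed to 833 to 940 and 1332 to 2091. Most of the hSRY-OFF sum was Ly6c1 (log2 fold change 0.64, limma adjusted p 0.0514), which is also known from brain endothelium, and without it the other 3 summed to 175 to 252 and 230.0 to 1154, with overlap. Both sums include Lcn2, which was detected on no hSRY-OFF array. It was tested only because it was detected on the 3 hSRY-ON arrays, so no difference between groups is read from these sums. Of 10 lymphocyte markers with a probe, 6 were detected on no array, among them Cd3d, Cd3g, Cd8a and Cd4, and the 3 tested summed to 376 to 387 and 368 to 436. Among the 3, Cd79b was likewise detected on no hSRY-OFF array and was tested through the hSRY-ON arrays alone. Class II genes, found on professional antigen-presenting cells, had 4 of 7 tested and summed to 810 to 942 and 780 to 881, with H2-Aa, H2-Eb1 and Ciita detected on no array. The full microglia sum and the full granulocyte and monocyte sum, which holds Lcn2, did not overlap between the groups. They overlapped without C1qa, C1qb and C1qc and without Ly6c1, which were chosen after their values were seen, and the other 3 sums overlapped. The part of these cells in the values of Gbp2, B2m and the other genes above was not tested. The tissue label was checked with 9 markers of neurons, astrocytes and oligodendrocytes, of which 8 were detected on all arrays and Snap25 on none. Of these the astrocyte gene Gfap was called (log2 fold change -0.83, limma adjusted p 0.0309). The 8 summed to 49827 to 54098 in hSRY-OFF and 44893 to 48956 in hSRY-ON, without overlap, with 6 below 0 and 2 above. The part of this in the other values was not tested. Vwf and Gfap kept their calls without hSRY-ON array 3 and lost them without any 1 of the other 5 arrays, at limma adjusted p values of 0.0614 to 0.108 for Vwf and 0.0733 to 0.110 for Gfap.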

How the data were processed

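RNA of whole brain was measured in 6 samples, 3 per genotype, grouped and numbered by their labels. The authors deposited a non-normalized table with a mean bead intensity per probe and array, on a linear scale, and a detection p-value, whose steps fit 798 negative controls per array. Background correction by the authors is not given in the sources used here; their methods name TCC and their processing notes limma.

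From these, limma 3.58.1 under R 4.3.3 was used as follows. The function neqc inferred the controls' mean and SD from the detection p-values, corrected with normexp (offset 16) and quantile normalized before log2. This widens the spread of dim probes. Probes detected (p-value under 0.05) on 3 or more of the 6 arrays entered 1 linear model with group as its term (lmFit, eBayes, two-sided), with Benjamini-Hochberg adjustment across all of them. The number of arrays limits the precision. The fit was tested on simulated data. Each probe was tested separately; in lists the probe of highest mean stood for its gene, and older symbols were matched through RefSeq synonyms. Of the lists, 2 genes that are not members are not reported here and were left out of the counts of their lists. Members and lists were chosen with earlier results of these data known. Named were all members, every called gene, and up to 3 genes per pathway list with the largest difference and no overlap between groups; all other genes given with values were chosen after their values were seen. Promoters were from RefSeq (GRCm38.p6). Alternatives covered background, normalization, filter, prior, array weights, a replicate block and each array left out. Figures used matplotlib 3.10.9 in Python 3.11.15.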

Additional observations from a re-analysis of the deposited data

How the results depend on the processing

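The absence of calls among the interferon-induced and class I probes held under all 16 alternatives, including no filter, where all 11 probes were tested. Of the 5 probes added there, 4 were detected on no array. With the replicate block, and without any 1 array but hSRY-ON array 3, 0 or 1 probes were called over all probes. The absence of member calls in those settings was thus all but fixed in advance. Over these, 86 of 90 refits of the 6 tested probes kept the direction and 4 turned, all when 1 array was left out, where the log2 fold change ran from -0.29 to 0.041 for Ifit3, from -0.40 to 0.090 for H2-K1 and from -0.35 to 0.076 for Tap1; the cause was not tested. The number called over all probes, 311, became 1317 without background correction, 860 with normexp on the signals at an offset of 50, 123 with no filter and 708 with detection under 0.01 on all arrays, where more and fewer probes are tested, 1447 with a trend and a robust prior, and 479 with array weights. Leaving out 1 array gave 0 to 417 (0, 1 and 0 without hSRY-OFF arrays 1 to 3, 1, 0 and 417 without hSRY-ON arrays 1 to 3). The 0 pathway genes called in limma became 4 without background correction and 4 with the trend and robust prior, each with 3 lower and 1 higher in hSRY-ON. They became 3 with normexp on the signals, all lower, and 0 to 1 without 1 array (1 without hSRY-ON array 3, lower). The replicate block gave 0 calls over all probes and 0 among members and pathway genes, with Vwf at an adjusted p of 0.0990 and Gfap at 0.0994. Deviations of samples with the same number correlated at 0.040, 0.029 and 0.025, and each sample correlated best with its own number, which is a hint from the data only; the labels do not pair them. Taking log2 before quantile normalization, chosen after seeing the data, gave 308 calls. Signal over background limits Ifit1, Ifit3, Irf7, Usp18, H2-K1 and Tap1, which lie at or near the limit of detection.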

Other observations

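Lcn2, which encodes the iron-binding acute-phase protein lipocalin 2, and S100a8, a granulocyte protein, are named here after their values were seen. Lcn2 (ILMN_2712075) was below detection on all 3 hSRY-OFF arrays and detected on all 3 hSRY-ON arrays, where its normalized log2 signals were 6.06, 5.82 and 7.75. Set against the dimmest detected signal of the hSRY-OFF arrays, it was at least 2.12-fold higher in hSRY-ON, and at least 1.40-fold without hSRY-ON array 3. No test is given for it, because it passed the filter on dim probes through the hSRY-ON arrays alone. S100a8 (ILMN_2710905) gave 6.52, 7.18 and 6.74 in hSRY-OFF and 6.56, 7.41 and 9.77 in hSRY-ON (limma adjusted p 0.439), so that its difference rests on hSRY-ON array 3, the array on which Lcn2 was also highest.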
